A study of Mus musculus with 14 samples.

Results

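The proteasome is the cell's main protease for ubiquitin-tagged proteins, and the peptides it releases are a source of those shown on MHC class I. Its proteolytic sites lie on 3 subunits of the 20S core. In most cells these are Psmb5 (beta5, chymotrypsin-like cleavage), Psmb6 (beta1, caspase-like cleavage) and Psmb7 (beta2, trypsin-like cleavage). Interferon signalling is known to induce alternative subunits that take their place in newly assembled cores and give the immunoproteasome. Psmb8 (LMP7, beta5i) replaces Psmb5, Psmb9 (LMP2, beta1i) replaces Psmb6, and Psmb10 (MECL-1, beta2i) replaces Psmb7. Psme1 and Psme2 encode the alpha and beta chains of PA28, an interferon-inducible ring that caps the core and opens it to peptides. Psme3 encodes PA28 gamma, a nuclear relative that caps the core without the other chains. These 9 genes, chosen by name, are described here across 3 mouse tumour cell lines. All 9 were found among the 34866 genes of the tables, and all 9 passed the filter on low counts in every line.

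The cells were exposed to a RIG-I agonist or to a control agonist, each at 0.5 ug/ml for 24 h. RIG-I is a cytosolic sensor of viral RNA whose activation leads to type I interferon production. The lines were CT26, a colorectal carcinoma of BALB/c mice, E0771, a mammary carcinoma of C57BL/6 mice, and MC38, a colon adenocarcinoma of C57BL/6 mice. CT26 had 3 libraries per agonist, while E0771 and MC38 had 2 per agonist, 14 in all. None of the sources used here gives a genetic change in any line, names the sequence of either agonist, or says whether libraries came from separate cultures, so p-values measure the spread between libraries, which may be technical. Untreated cells were not analysed here, so each change is relative to the control agonist. MC38 was grown in DMEM and the other lines in RPMI. E0771 and MC38 library names share a prefix that CT26 names lack, and what it stands for is not given in the sources used here. Line, strain and that naming cannot be told apart between CT26 and E0771, nor line, strain, naming and medium between CT26 and MC38, nor line and medium between E0771 and MC38.

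CT26 libraries were the deepest, at 32826742 to 40564102 estimated counts; the 4 E0771 libraries held 12413347 to 13399247 and the 4 MC38 libraries 12347361 to 18964563. In fits that did not pair libraries, the biological coefficient of variation within groups was 0.0304 in MC38, 0.102 in CT26 and 0.202 in E0771. A change of a given size was thus harder to call in E0771 in those fits. Leukocytes also express immunoproteasome subunits constitutively, so a list of 14 leukocyte markers was summed. The sums were 4.86 to 5.77 CPM (counts scaled to library size) with the RIG-I agonist and 3.81 to 4.85 CPM with the control agonist in CT26. In E0771 they were 11.7 to 18.3 CPM with the RIG-I agonist and 14.7 to 19.2 CPM with the control agonist. In MC38 they were 6.04 to 6.71 CPM with the RIG-I agonist and 8.49 to 8.58 CPM with the control agonist. Between 2 and 5 of the 14 genes were at 0 in every library of a group, among them the macrophage marker Adgre1 in all groups but MC38 with the RIG-I agonist. Other markers of the list were detected. Cd68 had the highest mean of the 14 in every group but E0771 with the control agonist, at 2.73 to 7.57 CPM. In that group Lyz2 was highest, at 9.03 CPM. Of 7 epithelial markers, CT26 expressed mainly Krt18 and E0771 mainly Krt8, while in MC38 all 7 summed to under 1 CPM in each library. Some markers moved with the agonist. Krt18 was lower in CT26 (log2 -0.48, adjusted p 0.000688, edgeR), and of 5 fibroblast markers tested 4 were lower in CT26 and 3 in MC38, among them Pdgfra at -0.34 and -0.68. The endothelial marker Kdr was called higher in CT26, at 0.915 to 1.14 CPM with the RIG-I agonist and 0 to 0.0273 CPM with the control agonist. The part of these markers in the results was not tested.

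The 9 genes lie at several places in the GRCm38 genome (GENCODE M21 gene models). Psmb8 (ENSMUSG00000024338, chr17:34197721-34201454, plus strand) and Psmb9 (ENSMUSG00000096727, chr17:34181987-34187764, minus strand) sit in the MHC class II region, on either side of Tap1, which encodes a chain of the peptide transporter. Tap2, the other chain, begins 2072 bases past Psmb8. Psmb9 and Tap1 start head to head and their models overlap by 212 bases on opposite strands. Psme1 (chr14:55578123-55581529, plus strand) and Psme2 (chr14:55587441-55591113, minus strand) are 5911 bases apart. Emc9 lies between them and overlaps the end of Psme1 by 14 bases on the opposite strand, and Rnf31 and Irf9 follow within 20 kb of Psme2. Psmb10 (chr8:105935735-105938444, minus strand) stands apart from both clusters. The constitutive genes are Psmb5 (chr14:54614119-54618022, minus strand), Psmb6 (chr11:70525367-70527858, plus strand) and Psmb7 (chr2:38588036-38644087, minus strand). Psme3 occupies chr11:101316213-101323537 on the plus strand.

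RefSeq promoter windows (GRCm38.p6, 250 bases before to 50 after the annotated start) were matched for 8 of the 9 genes, all but Psmb7. They were searched on both strands for the core of the interferon-stimulated response element (ISRE, GAAA then any 2 bases then GAAA), the core of the gamma-activated site (GAS, TTC then any 3 bases then GAA) and a kappaB motif (GGGA then any 1 base then TTTCC). Of 32851 promoter windows, 3.44% held the ISRE core, 8.3% the GAS core and 0.411% the kappaB motif. Among the 8 genes, Psmb8 held a GAS core at bases 97 to 89 before its start (-97 to -89), and Psme1 held an ISRE core on the opposite strand at bases 10 to 19 after its start. The stretches around both matches are shown because both genes rose with the agonist in the fits below; capitals mark the match. The Psmb8 stretch is chr17:34198088-34198117 and the Psme1 stretch is chr14:55578493-55578522, both on the plus strand. Both lie inside an exon of a longer GENCODE protein-coding transcript of their gene, so they are upstream or early only relative to the RefSeq start.
Psmb8 GAS core: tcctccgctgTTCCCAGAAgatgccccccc
Psme1 ISRE core: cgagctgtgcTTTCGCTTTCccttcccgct
No match to these letters was found in the windows of Psmb9, Psmb10, Psme2, Psme3, Psmb5 or Psmb6.

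The 3 immunoproteasome subunits were higher with the RIG-I agonist in every line. In CT26 they rose 4.19- to 5.42-fold and in MC38 2.64- to 3.38-fold. In E0771 the fitted folds were 11.2 to 12.1, and Psmb9 and Psmb10 passed the test while Psmb8 did not. Levels are given in CPM scaled by TMM over all 14 libraries, and folds come from a fit within each line.

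Psmb8 had 169, 172 and 162 CPM in the 3 CT26 libraries with the RIG-I agonist, against 39.0, 42.6 and 42.7 CPM in those with the control agonist. The log2 fold change was 2.07 ± 0.059 (SE), with an adjusted p of 3.37e-12 in edgeR's quasi-likelihood test. In MC38 it had 193 and 187 CPM with the RIG-I agonist, against 71.3 and 72.0 CPM with the control agonist, a log2 fold change of 1.40 ± 0.044 with an adjusted p of 1.42e-16 in edgeR. Both lines had tight groups far apart from each other. E0771 had 94.1 and 79.3 CPM with the RIG-I agonist, against 12.2 and 3.29 CPM with the control agonist. The groups did not overlap, but the control libraries were themselves far apart. Behind them stood 162 counts (95% exact Poisson interval 138 to 189) and 41 counts (29.4 to 55.6), intervals that cover counting error only and do not overlap. The E0771 log2 fold change of 3.48 ± 0.58 had an adjusted p of 0.081 in edgeR, above the threshold of 0.05. It became 4.73 without control replicate 1 and 2.83 without control replicate 2. Each of these 2 fits had 1 control library, so the spread between the controls was not measured in them. With all libraries, the Psmb8 change in E0771 was past the threshold by DESeq2 (adjusted p 0.0029) and in edgeR with a spread shared by all 14 libraries (6.87e-05). The shared spread also draws on CT26 and MC38, so it does not measure the gap between the E0771 controls alone.

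Psmb9 had the largest fitted fold of the 9 genes in CT26 and in MC38. In CT26 its levels were 108, 112 and 95.4 CPM with the RIG-I agonist and 17.7, 21.2 and 21.3 CPM with the control agonist, a log2 fold change of 2.44 ± 0.085 (adjusted p 3.07e-11, edgeR). In MC38 they were 66.1 and 59.0 CPM with the RIG-I agonist and 17.8 and 18.9 CPM with the control agonist, a log2 fold change of 1.76 ± 0.078 (7.12e-14, edgeR). E0771 libraries held 47.8 and 48.5 CPM with the RIG-I agonist and 5.96 and 2.33 CPM with the control agonist. The RIG-I libraries of E0771 were nearly equal, and as for Psmb8 control replicate 2 was the lower one, with 29 counts (19.4 to 41.6) against 79 (62.5 to 98.5) in replicate 1. The E0771 change was 3.54 ± 0.42 on the log2 scale with an adjusted p of 0.0296 in edgeR. That call was lost without RIG-I replicate 1 (adjusted p 0.112) or without RIG-I replicate 2 (0.117), at log2 fold changes of 3.54 and 3.53. The log2 fold change was 4.38 without control replicate 1 and 3.02 without control replicate 2, where 1 control library was left and the spread between controls was not measured. Psmb9 shared 4.79% of its 31-base stretches with other transcripts, mainly those of Tap1. Tap1 reads and Psmb9 reads can be separated at the overlap only by strand, and whether the authors' counting used it is not given in the sources used here.

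Psmb10 separated the groups in all 3 lines and was called in each. E0771 had 195 and 161 CPM with the RIG-I agonist and 16.5 and 13.1 CPM with the control agonist, a log2 fold change of 3.60 ± 0.20 (adjusted p 0.00469, edgeR). CT26 had 217, 233 and 218 CPM with the RIG-I agonist and 41.3, 52.7 and 48.4 CPM with the control agonist, a log2 fold change of 2.28 ± 0.076 (5.6e-11, edgeR). MC38 had 557 and 515 CPM with the RIG-I agonist and 173 and 175 CPM with the control agonist, a log2 fold change of 1.62 ± 0.040 (4.56e-18, edgeR). Psmb10 transcripts shared no 31-base stretch with those of the other genes counted. Antisense genes that were not counted overlap Psmb10 (Gm16156, 2710 bases) and Psmb8 (Gm20496, 2139 bases) and were not compared. MC38 cells given the control agonist thus stood close to the level that E0771 cells had with the RIG-I agonist.

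**Figure D1:**
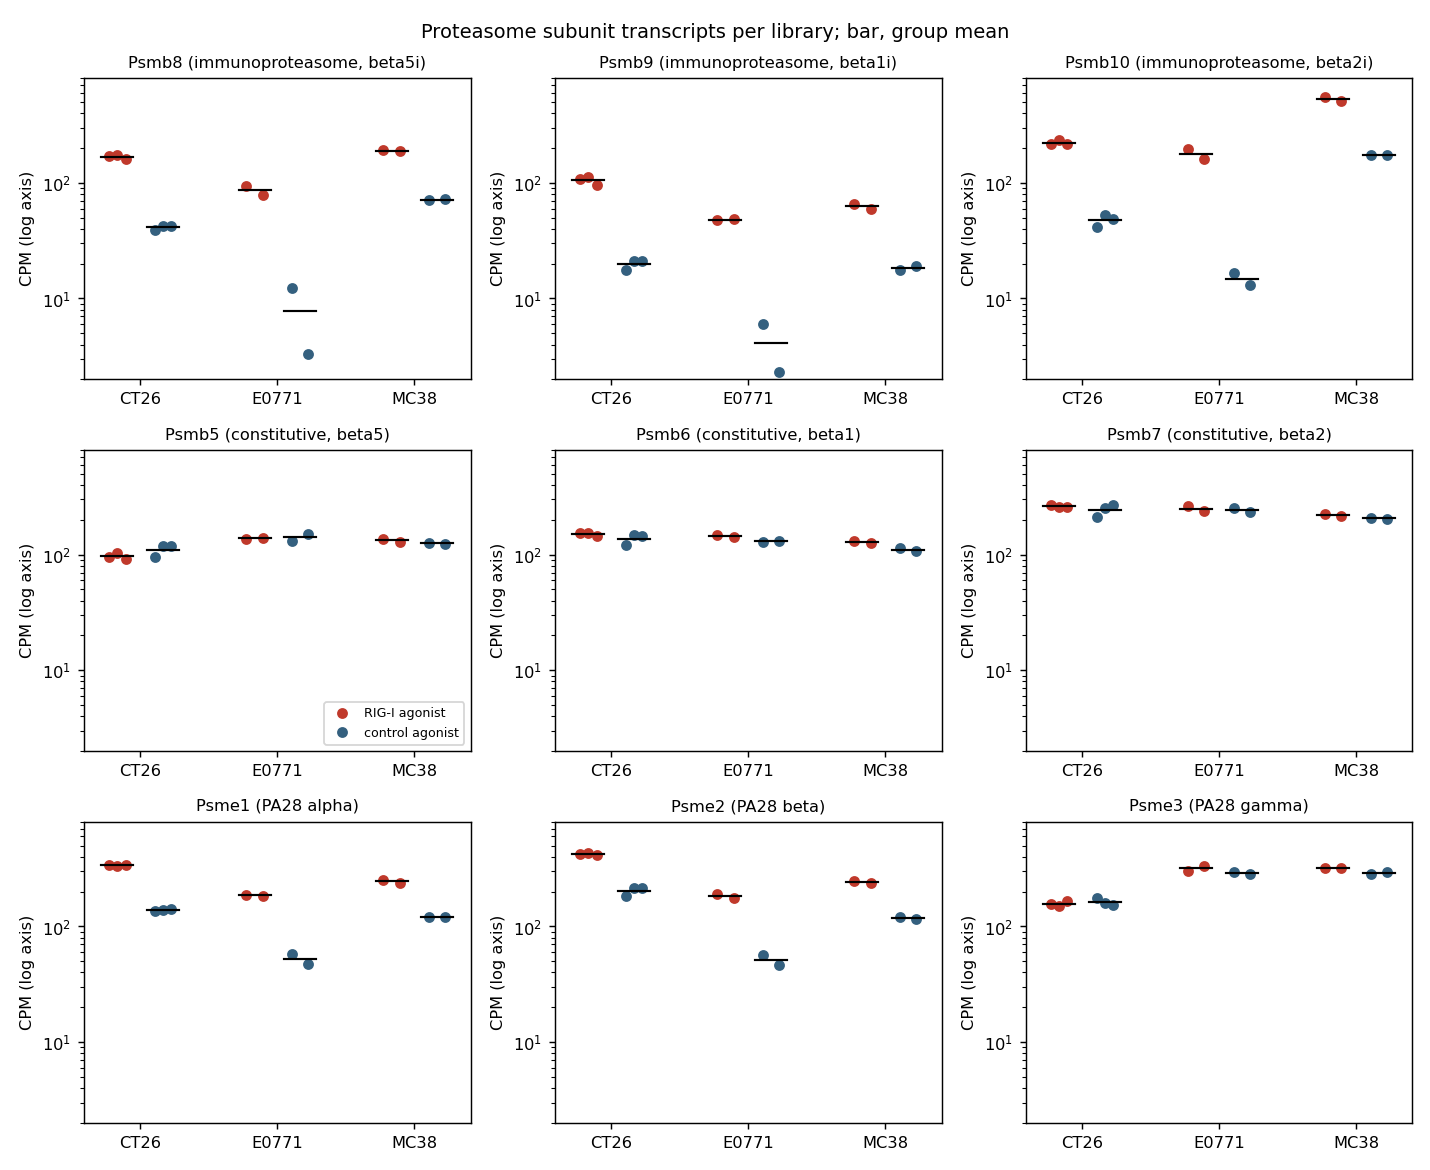
CPM (log axis) of each of the 9 genes in each of the 14 libraries, by line, with the RIG-I agonist left of the control agonist; points are libraries and bars are group means. The immunoproteasome row and Psme1 and Psme2 show separated groups in every line, with E0771 control libraries lowest (Psmb8 at 12.2 and 3.29 CPM), while Psmb5, Psmb6, Psmb7 and Psme3 show groups close together.

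Of the PA28 chains, Psme1 and Psme2 rose 2.01- to 3.59-fold over the 3 lines, and Psme3 was called in MC38 alone, at a fold of 1.10. Psme1 had 342, 336 and 342 CPM in CT26 with the RIG-I agonist, against 137, 138 and 142 CPM with the control agonist. In E0771 it had 189 and 182 CPM with the RIG-I agonist, against 57.4 and 47.5 CPM with the control agonist, and in MC38 252 and 237 CPM against 122 and 121 CPM. No group overlapped its counterpart. The log2 fold changes of Psme1 were 1.33 ± 0.054 in CT26 (adjusted p 1.4e-10), 1.83 ± 0.15 in E0771 (0.00992) and 1.01 ± 0.041 in MC38 (1.57e-14), all from edgeR.

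Psme2 had 424, 434 and 416 CPM in CT26 with the RIG-I agonist, against 184, 215 and 214 CPM with the control agonist. In E0771 it had 189 and 178 CPM with the RIG-I agonist, against 57.0 and 46.0 CPM with the control agonist, and in MC38 245 and 239 CPM against 122 and 115 CPM. Psme2 libraries were again high with the RIG-I agonist in every line, without overlap. The log2 fold changes were 1.10 ± 0.069 in CT26 (adjusted p 2.34e-08), 1.84 ± 0.16 in E0771 (0.011) and 1.03 ± 0.040 in MC38 (9.21e-15), all from edgeR. Psme2 shared 33.5% of its 31-base stretches with the near-identical gene Psme2b, which held at most 896 counts in any CT26 library and at most 128 in the other lines. Adding the counts of such copies to their parent genes, an alternative chosen after seeing the data, left the calls of Psme1 and Psme2 as they were in all 3 lines.

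Psme3 had 155, 151 and 165 CPM in CT26 with the RIG-I agonist, against 177, 158 and 153 CPM with the control agonist, and these groups overlapped. Its levels were 304 and 335 CPM in E0771 with the RIG-I agonist, against 297 and 283 CPM with the control agonist. MC38 libraries had 319 and 318 CPM with the RIG-I agonist, against 284 and 294 CPM with the control agonist. The log2 change was -0.002 ± 0.062 in CT26 (adjusted p 0.983) and 0.15 ± 0.13 in E0771 (0.798). In MC38 it was 0.14 ± 0.035 with an adjusted p of 0.00366 in edgeR. The MC38 call was lost without control replicate 1 (0.0611) and with the shared spread (0.415).

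The 3 constitutive catalytic subunits had fitted changes of at most 1.17-fold in any line, and none was called lower in the fits of all libraries of a line. Psmb5 had 96.1, 104 and 92.2 CPM in CT26 with the RIG-I agonist, against 94.7, 118 and 118 CPM with the control agonist. E0771 had 137 and 140 CPM of Psmb5 with the RIG-I agonist, against 132 and 152 CPM with the control agonist, and MC38 137 and 129 CPM against 127 and 125 CPM. The groups overlapped in CT26 and E0771. The log2 changes of Psmb5 were -0.13 ± 0.081 in CT26 (adjusted p 0.224), -0.03 ± 0.13 in E0771 (0.97) and 0.08 ± 0.043 in MC38 (0.185), from edgeR. Without CT26 control replicate 1, the CT26 change of Psmb5 was -0.23 and passed the test (adjusted p 0.00191).

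Psmb5 is the gene whose counts are least certain, since 65.7% of its 31-base stretches recur in other transcripts. The processed pseudogene Gm3375 shares 59.8% of them. Gm3375 held 1362 to 1520 counts in CT26 with the RIG-I agonist and 1242 to 1773 with the control agonist, and at most 1 count in any E0771 or MC38 library. Adding those counts to Psmb5 gave a CT26 log2 change of -0.11 (adjusted p 0.316).

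Psmb6 had 153, 153 and 146 CPM in CT26 with the RIG-I agonist, against 120, 148 and 144 CPM with the control agonist. In E0771 Psmb6 had 148 and 142 CPM with the RIG-I agonist, against 128 and 133 CPM with the control agonist, and in MC38 132 and 127 CPM against 114 and 107 CPM. Control replicate 1 was the low library in CT26, and the ranges there overlapped slightly. The log2 fold changes were 0.18 ± 0.068 in CT26 (adjusted p 0.0506), 0.17 ± 0.12 in E0771 (0.741) and 0.22 ± 0.045 in MC38 (0.000508), from edgeR. Same-numbered CT26 libraries correlated in their deviations from group means at 0.122, 0.107 and 0.300, but 2 differently numbered pairings had 0.104 and 0.139. With the replicate number as a block, the CT26 change of Psmb6 was 0.18 with an adjusted p of 0.0334 in edgeR. Without CT26 control replicate 2 it was 0.23 (0.0409).

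Psmb7 had 271, 260 and 256 CPM in CT26 with the RIG-I agonist, against 212, 253 and 268 CPM with the control agonist. E0771 had 262 and 236 CPM of Psmb7 with the RIG-I agonist, against 252 and 232 CPM with the control agonist, and MC38 225 and 217 CPM against 209 and 204 CPM. Only in MC38 were the 2 groups apart. The log2 fold changes were 0.15 ± 0.077 in CT26 (adjusted p 0.144), 0.05 ± 0.14 in E0771 (0.941) and 0.10 ± 0.037 in MC38 (0.0483), from edgeR. The MC38 call was lost when any 1 of its 4 libraries was left out (adjusted p 0.0515 to 0.226), by DESeq2 (0.25) and with the shared spread (0.666). The shared spread also ended the MC38 call of Psmb6 (0.178). The Psmb7 model overlaps the Nek6 gene on the opposite strand, and 11.3% of its 31-base stretches recur elsewhere.

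Counting calls at an adjusted p under 0.05, 5 of the 9 genes were higher in CT26, where 19.8% of all genes tested were higher. In E0771 4 of 9 were higher, against 1.53% of all genes, and in MC38 8 of 9, against 18.9%. None of the 9 was called lower in any line by edgeR, against 18.6% of all genes in CT26, 0.0256% in E0771 and 16.9% in MC38. DESeq2 called 0 lower too, and 0 were lower at an unadjusted p under 0.05 in edgeR. By groups that did not overlap, on CPM scaled within the line, 6 of 9 were higher in CT26 (26.4% of all genes), 7 in E0771 (20.4%) and 9 in MC38 (33.4%), and 0 were lower in any line (25%, 20% and 33.8% of all genes). The sixth in CT26 was Psmb6, whose groups overlapped on the scale used above. Poly(A) RNA of a whole culture was measured, so more cells expressing a gene and more RNA per cell cannot be told apart.

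**Figure D2:**
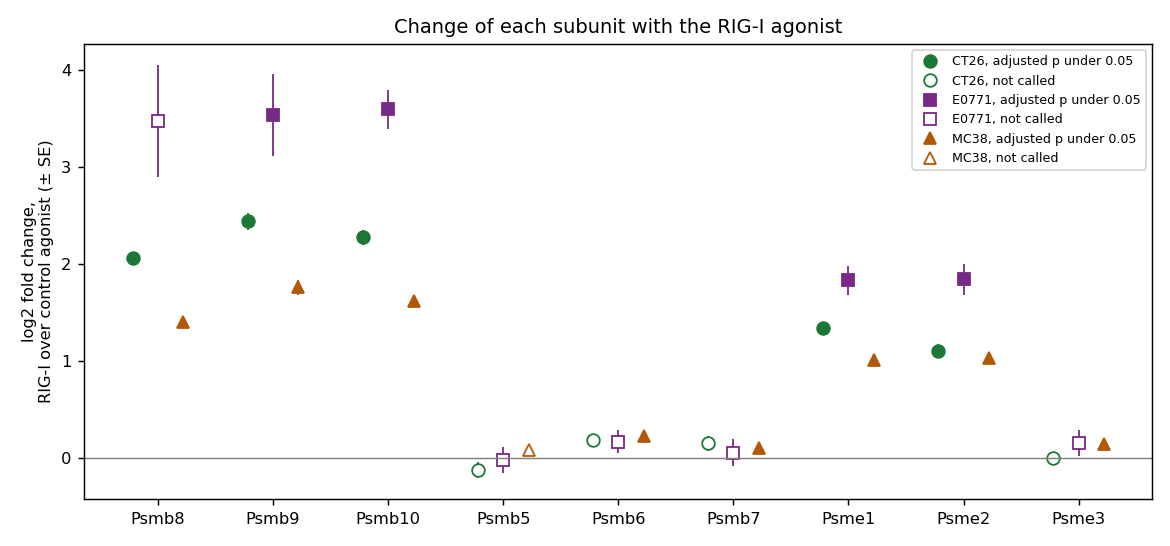
Fitted log2 fold change with its standard error (RIG-I over control agonist) of each gene in each line; filled symbols passed an adjusted p of 0.05 in edgeR. The immunoproteasome subunits lie between 1.40 and 3.60 and Psme1 and Psme2 between 1.01 and 1.84, with E0771 highest, and the remaining 4 genes lie between -0.13 and 0.22.

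Setting each alternative subunit over the one it replaces shows how far the balance of transcripts moved. For each library the counts were divided by the length of the gene's merged exons, and the ratio was taken within the library, so that sequencing depth cancels. The transcript ratio of Psmb8 to Psmb5 was 0.468, 0.442 and 0.467 in CT26 with the RIG-I agonist, against 0.109, 0.0962 and 0.0959 with the control agonist. In E0771 it was 0.183 and 0.151 with the RIG-I agonist, against 0.0246 and 0.00577 with the control agonist, and in MC38 0.375 and 0.384 against 0.150 and 0.154. The ratio was below 1 in every library, and no group overlapped its counterpart. From the geometric means, the Psmb8 to Psmb5 ratio was 4.57-fold higher in CT26, 13.9-fold in E0771 and 2.50-fold in MC38 with the RIG-I agonist. The E0771 fold was 28.8 without control replicate 1 and 6.75 without control replicate 2.

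The ratio of Psmb9 to Psmb6 was 0.362, 0.376 and 0.335 in CT26 with the RIG-I agonist, against 0.0752, 0.0733 and 0.0757 with the control agonist. In E0771 it was 0.165 and 0.174 with the RIG-I agonist, against 0.0239 and 0.00897 with the control agonist, and in MC38 0.255 and 0.238 against 0.0800 and 0.0905. The beta1 pair thus kept its constitutive member in excess in each library. The folds were 4.78 in CT26, 11.6 in E0771 and 2.90 in MC38, and the E0771 fold was 18.9 without control replicate 1 and 7.12 without control replicate 2.

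The beta2 pair was the one with ratios above 1. The ratio of Psmb10 to Psmb7 was 1.60, 1.80 and 1.71 in CT26 with the RIG-I agonist, against 0.391, 0.418 and 0.362 with the control agonist. In E0771 it was 1.49 and 1.37 with the RIG-I agonist, against 0.131 and 0.113 with the control agonist. MC38 had 4.97 and 4.75 with the RIG-I agonist, and 1.66 and 1.73 already with the control agonist. The folds were 4.37 in CT26, 11.7 in E0771 and 2.87 in MC38.

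Averaged over the 3 lines, the log2 ratio was higher with the RIG-I agonist by 2.44 for Psmb8 to Psmb5, 2.44 for Psmb9 to Psmb6 and 2.40 for Psmb10 to Psmb7. Each had p = 0.00278 in a two-sided exact permutation test that reassigned agonists within lines (720 arrangements), the smallest p it can give, and 0.00278 after adjustment over the 3 pairs. A single line cannot go below an exact p of 0.1 in CT26 or 0.333 in E0771 and MC38, and every pair stood at that minimum in every line. The level of a ratio depends on the length used, but its change with the agonist does not. With the longest coding transcript in place of merged exons, the geometric mean of Psmb8 to Psmb5 in CT26 was 0.952 with the RIG-I agonist and 0.208 with the control agonist. That of Psmb10 to Psmb7 was then 0.750 with the RIG-I agonist and 0.172 with the control agonist in CT26, and 0.631 and 0.0537 in E0771, so the excess of Psmb10 over Psmb7 in these lines rests on the choice of length. In MC38 the ratio was 2.14 with the RIG-I agonist and 0.747 with the control agonist, so the excess with the control agonist there rests on the length too. With Gm3375 and other copies added, the Psmb8 to Psmb5 mean in CT26 was 0.324 with the RIG-I agonist and 0.0721 with the control agonist.

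**Figure D3:**
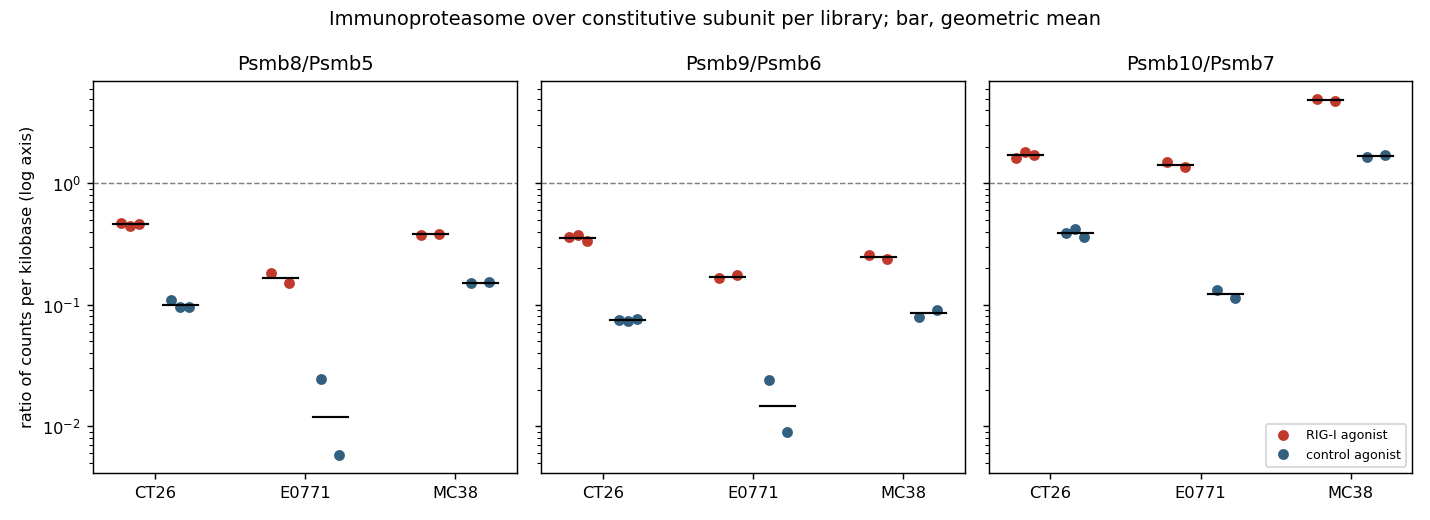
Ratio of each immunoproteasome subunit to its constitutive counterpart in each library, from counts per kilobase of merged exon (log axis), RIG-I agonist left of control agonist within each line; bars are geometric means and the dashed line marks equal levels. All groups are apart, and Psmb10 to Psmb7 alone passes 1 with this length, in MC38 also with the control agonist (1.66 and 1.73). With the longest coding transcript as length, its geometric mean passed 1 only in MC38 with the RIG-I agonist (2.14).

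The size of the change was compared between lines by the interaction contrast of a fit of all 14 libraries. That fit used 1 spread per gene for the 3 lines, although the lines varied unequally. For Psmb8 and Psmb9 the standard errors within E0771 were 0.58 and 0.42, above those of the E0771 minus MC38 contrast below. The Psmb8 change within E0771 was itself not called (adjusted p 0.081, edgeR). The RIG-I effect was called larger in E0771 than in MC38 for all 3 immunoproteasome subunits and for Psme1 and Psme2. The difference on the log2 scale (E0771 minus MC38) was 2.06 ± 0.44 for Psmb8 (adjusted p 0.0403), 1.76 ± 0.32 for Psmb9 (0.0136), 1.97 ± 0.19 for Psmb10 (6.39e-05), 0.81 ± 0.12 for Psme1 (0.0021) and 0.80 ± 0.15 for Psme2 (0.0103). That is 5 of 9 genes higher, where 1.81% of all genes were, and none lower, where 0.3% were. The calls of Psmb10 and Psme1 were kept whichever library was left out. That of Psmb8 was lost without any 1 of the MC38 libraries or either E0771 RIG-I library (adjusted p 0.0571 to 0.152). That of Psmb9 was lost without MC38 RIG-I replicate 2 (0.0698) or either MC38 control library (0.0556 and 0.0669). Psme2 lost its call without either MC38 RIG-I library (0.0613 and 0.0632) or without MC38 control replicate 1 (0.069). In each of these fits a group was left with 1 library, which was taken to vary like the other groups. With all libraries kept, the Psmb8 call was also lost without the filter (adjusted p 0.156, edgeR) and with the replicate number as a block (0.0785). The block also ended the Psmb9 call (0.0676).

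CT26 showed a smaller effect than E0771 for Psmb10, Psme1 and Psme2. The difference (CT26 minus E0771) was -1.36 ± 0.17 for Psmb10 (adjusted p 0.000671), -0.54 ± 0.11 for Psme1 (0.0141) and -0.78 ± 0.13 for Psme2 (0.00505), 3 of 9 genes lower where 2.81% of all genes were. None of the 9 was higher, against 1.06% of all genes. The same difference for Psmb8 was -1.45 ± 0.40 (0.0888) and for Psmb9 -1.13 ± 0.30 (0.0583). The Psmb8 difference was -2.71 without E0771 control replicate 1 and -0.81 without replicate 2, and that of Psmb9 was -1.98 without replicate 1. These fits had 1 E0771 control library, so the spread between E0771 controls was not measured in them. Between CT26 and MC38, 0 of the 9 genes were called different in edgeR, against 1.98% of all genes higher and 1.82% lower. Of the 9, 3 (Psmb9, Psmb10 and Psme1) had an unadjusted p under 0.05. The spread in this contrast was shared with E0771, the most variable line. For Psmb8 the difference was 0.61 ± 0.35, while its standard error within the line was 0.059 in CT26 and 0.044 in MC38. The lack of a call thus does not show equal effects. Psmb10 came nearest to a call, at 0.60 ± 0.16 (adjusted p 0.0552), and at 0.61 it passed with the replicate number as a block (0.000506). The constitutive subunits and Psme3 differed by at most 0.26 on the log2 scale in any of the 3 contrasts, and none was called.

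The order of the lines by level in the control cells differed between genes, also within a class. For Psmb8 the order was MC38 (71.7 ± 0.49 CPM, SD, n = 2), CT26 (41.4 ± 2.14, n = 3) and E0771 (7.75 ± 6.32, n = 2), and each neighbour differed from the next by edgeR (adjusted p 0.0148 and 5.47e-05). The Psmb8 difference between CT26 and MC38 lost its call without either MC38 control library (0.0675 and 0.0681) or without the filter (0.0558). For Psmb10 it was MC38 (174 ± 1.94), CT26 (47.5 ± 5.75) and E0771 (14.8 ± 2.44), with 6.54e-09 and 1.01e-07 between neighbours. CT26 (20.1 ± 2.03) and MC38 (18.4 ± 0.81) did not differ in Psmb9 beyond their spread (adjusted p 0.547), and both were above E0771 (4.14 ± 2.57). Psme1 and Psme2 had their highest means in CT26 (139 ± 2.52 and 205 ± 17.4), then MC38 (121 ± 0.49 and 119 ± 4.65) and lowest in E0771 (52.4 ± 7.03 and 51.5 ± 7.73). E0771 was thus the lowest line for all 5 genes.

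The other members followed other orders. Psme3 was equal within error in E0771 (290 ± 9.7 CPM) and MC38 (289 ± 6.52, adjusted p 0.988) and lower in CT26 (163 ± 12.9). Psmb5 had its lowest mean in CT26 (110 ± 13.5) and its highest in E0771 (142 ± 13.8), a difference that edgeR called (log2 -0.36, adjusted p 0.00475, but 0.0704 without E0771 control replicate 2), while neither was called against MC38 (126 ± 1.35). That order turns when Gm3375 and the other copies are added: Psmb5 then had 154 ± 19.8 CPM in CT26, 142 ± 13.8 in E0771 and 126 ± 1.4 in MC38. The CT26 difference was then 0.12 from E0771 (adjusted p 0.313) and 0.29 from MC38 (0.0176), so the place of CT26 in Psmb5 levels is not settled. Psmb6 and Psmb7 did not differ by the test between CT26 (137 ± 14.7 and 244 ± 29) and E0771 (130 ± 3.42 and 242 ± 14.2; adjusted p 0.423 and 0.912), and had their lowest means in MC38 (110 ± 4.77 and 206 ± 3.66). CT26 exceeded MC38 in both by edgeR (adjusted p 0.00435 and 0.0301), and E0771 exceeded MC38 in Psmb6 (0.0391) but not in Psmb7 (0.0626). Some of these small differences were lost with other settings. With DESeq2 size factors Psme1 and Psmb7 were no longer called between CT26 and MC38 (0.065 and 0.0571), nor Psmb6 between E0771 and MC38 (0.0692). Psme1 and Psmb7 in CT26 against MC38 were also lost without CT26 control replicate 2, CT26 control replicate 3 or either MC38 control library (0.0552 to 0.126), and Psmb6 in E0771 against MC38 without any 1 of their 4 control libraries (0.0585 to 0.189). In all, 5 genes were higher and 2 lower in CT26 than in E0771 (all genes 37.2% and 33.1%), 4 higher and 3 lower in CT26 than in MC38 (37.8% and 35.8%), and 1 higher and 5 lower in E0771 than in MC38 (31.5% and 32.6%).

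With the RIG-I agonist the lines came closer for some genes. The Psmb8 difference between CT26 (168 ± 5.41 CPM) and MC38 (190 ± 4.14) was log2 -0.18 ± 0.24, against -0.79 ± 0.25 with the control agonist. It was no longer called by edgeR (adjusted p 0.525). That standard error takes in the spread of E0771, and the libraries of CT26 (162 to 172 CPM) and MC38 (187 to 193 CPM) did not overlap. E0771 remained lowest in Psmb8 (86.7 ± 10.5). Psmb9 in E0771 (48.2 ± 0.52) did not differ from MC38 (62.5 ± 5) at an adjusted p of 0.105, and CT26 was above both (105 ± 8.79). For Psmb10, MC38 (536 ± 29.6) stayed above CT26 (222 ± 9.1), and CT26 was above E0771 (178 ± 24.1, adjusted p 0.0232). The last call was lost without CT26 RIG-I replicate 2 (0.062) or E0771 RIG-I replicate 2 (0.168). Psme1 and Psme2 kept the order CT26 (340 ± 3.23 and 425 ± 9.11), MC38 (245 ± 10.6 and 242 ± 4.36) and E0771 (186 ± 4.34 and 184 ± 8.36). Counts of differing genes were 5 higher and 2 lower in CT26 than in E0771 (all genes 36.5% and 34.2%), 5 higher and 3 lower in CT26 than in MC38 (38.1% and 35.8%), and 0 higher and 4 lower in E0771 than in MC38 (30.8% and 31.5%). Psmb5 was among the lower genes of CT26 in both contrasts (log2 -0.51 and -0.45), and with the copies added it was called in neither, at -0.0065 from E0771 (adjusted p 0.964) and 0.051 from MC38 (0.652). Among the 5 in CT26 over MC38, Psmb6 and Psmb7 lost their calls without CT26 RIG-I replicate 1 (0.0705 and 0.076) or either MC38 RIG-I library (0.094 to 0.169), and Psmb6 also without CT26 RIG-I replicate 2 (0.0691).

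The rest of the proteasome had small fitted changes. A list of 44 other proteasome genes covered the alpha ring, the structural beta subunits, the 19S cap, assembly chaperones and bound proteins, and 42 of them were tested in each line. In CT26 10 were higher and 0 lower, in MC38 19 were higher and 1 lower (10 and 1 by DESeq2), and in E0771 0 were called in either direction by edgeR or DESeq2, where 1 was higher at an unadjusted p under 0.05 in edgeR. None of these fits paired libraries by number. Over all genes, 19.8% were called higher in CT26, 18.9% in MC38 and 1.53% in E0771, and 18.6%, 16.9% and 0.0256% lower. The median log2 change was 0.08 in each line, against -0.0075 to 0.0006 over all genes tested. The largest called changes in CT26 were 0.34 for Psma4 and 0.25 for Psma5, both of the alpha ring, and 0.28 for Psmg4 and 0.26 for Psmg3, both assembly chaperones. In MC38 they were 0.41 for Psmg4, 0.37 for Psmg3, 0.29 for Psma5 and 0.27 for Uchl5, a deubiquitinase of the 19S cap, and the gene that fell was Psme4 (PA200, another activator of the core), at -0.19. With the shared spread, Psma5, Psmg3 and Psmg4 lost their calls in CT26 (adjusted p 0.0553 to 0.284), and Psmg4, Psmg3, Psma5, Uchl5 and Psme4 theirs in MC38 (0.0576 to 0.524). Psmb11, the thymus-specific counterpart of Psmb5, was too low to test in any line.

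**Figure D4:**
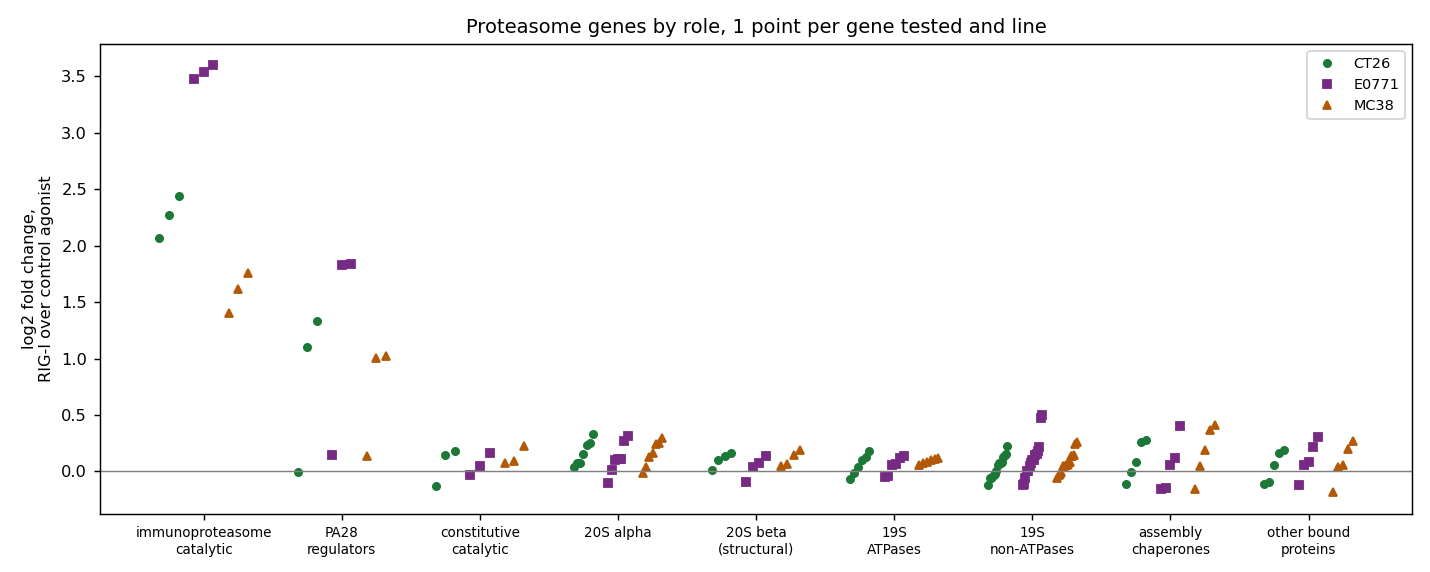
Log2 fold change (RIG-I over control agonist) of each proteasome gene tested, grouped by its role in the complex, 1 point per gene and line. The 3 immunoproteasome subunits and the PA28 chains Psme1 and Psme2 stand between 1.01 and 3.60, and the other proteasome genes lie between -0.19 and 0.50.

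Transcription factors known to act on these genes were looked at beside them. Irf1, an inducer of Psmb8, Psmb9 and Psmb10, rose by 1.59 ± 0.059 in CT26, 2.40 ± 0.15 in E0771 and 0.86 ± 0.040 in MC38 on the log2 scale (adjusted p 6.74e-11, 0.00606 and 1.34e-13, edgeR). Nlrc5, a transactivator of MHC class I genes, rose by 1.70 ± 0.078, 2.23 ± 0.21 and 1.27 ± 0.058 in the same lines. E0771 had the largest fitted change of both, as of the 5 inducible proteasome genes. The difference of effect between E0771 and MC38 was 1.52 for Irf1 (adjusted p 2.14e-05) and 0.96 for Nlrc5 (0.0215). Nfe2l1 (Nrf1), which raises constitutive proteasome genes when proteasome activity falls, was called in MC38 at 0.40 ± 0.035, and its values were -0.05 ± 0.060 in CT26 and 0.36 ± 0.14 in E0771. Nfe2l2 (Nrf2) was called in MC38 at 0.24 ± 0.043, with 0.10 ± 0.055 in CT26 and 0.31 ± 0.12 in E0771.

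The genes that carry proteasome products to MHC class I were higher too. Tap1 rose by 2.01 ± 0.061 in CT26, 2.92 ± 0.24 in E0771 and 1.43 ± 0.034 in MC38 on the log2 scale. In CT26 and MC38 that was close to its neighbour Psmb8 (2.07 and 1.40) and below its neighbour Psmb9 (2.44 and 1.76). In E0771 the fitted change of Tap1 was below that of both Psmb8 (3.48 ± 0.58) and Psmb9 (3.54 ± 0.42). Tap2, on the far side of Psmb8, rose by 1.07 ± 0.072 in CT26 and 0.83 ± 0.039 in MC38, and had 1.36 ± 0.21 in E0771 (adjusted p 0.0685). Tapbp (tapasin, which links the transporter to MHC class I) rose by 2.22 ± 0.070, 3.31 ± 0.34 and 0.71 ± 0.033 in CT26, E0771 and MC38, and Erap1, a trimming peptidase, by 0.86 ± 0.067, 1.52 ± 0.13 and 0.43 ± 0.035. In the Psme1 and Psme2 cluster, Rnf31 (HOIP, of the linear ubiquitin ligase) rose by 0.996 ± 0.066 in CT26 and 0.73 ± 0.055 in MC38, and Irf9, a component of the type I interferon transcription complex, by 0.83 ± 0.056 and 0.36 ± 0.048. In E0771 Rnf31 had 0.69 ± 0.20 and Irf9 1.15 ± 0.23, neither called. Emc9, which lies between Psme1 and Psme2, was not called in any line, at 0.82 ± 0.39 in CT26, -0.45 ± 0.35 in E0771 and 0.38 ± 0.45 in MC38. Dcaf11, on the other side of Psme1, was lower in CT26 (-0.19 ± 0.061) and MC38 (-0.23 ± 0.077). Beside Psmb10, Ctrl, which encodes a chymotrypsin-like protease, rose by 2.28 ± 0.25 and Lcat by 0.79 ± 0.19 in CT26, and neither was called in MC38. Genes within 20 kb of any of the 9 that no other list held were also counted. Of 15 tested in CT26, 6 were called higher and 1 lower, and of 15 in MC38, 2 higher and 5 lower. Over all genes, 19.8% were higher and 18.6% lower in CT26, and 18.9% and 16.9% in MC38. In E0771 0 of 14 were called by edgeR, against 1.53% higher and 0.0256% lower over all genes. There 2 of the 14 (Irf9 and Rnf31) had an unadjusted p under 0.05.

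Across the 14 libraries, which share lines and agonists and so are not independent, the log2 CPM of Psme1 and Psme2 had a Pearson r of 0.968, and that of Psmb8 and Psmb9 0.956. Psmb10 and Psme2 had 0.697, the lowest among the 5 inducible genes, with MC38 highest for the one and CT26 for the other. Psmb6 and Psmb7 had 0.900, while Psmb5 had -0.243 with Psmb6 and -0.254 with Psmb7. Among 14657 genes, the closest to Psmb8 were Ddx58, which encodes RIG-I (0.995), Tcirg1 (0.984) and Casp4 (0.980). Irgm1 (0.991), Psme1 (0.988) and Gbp3 (0.987) were closest to Psmb9, and Irf1 (0.991), Lgals3bp (0.991) and Parp9 (0.987) to Psmb10. Psme1 was closest to Gbp3 (0.995), Tor3a (0.993) and Sp110 (0.992), and Psme2 to Ifitm3 (0.996), A530032D15Rik (0.989) and Ube2l6 (0.988). The constitutive subunits had weaker best matches, Ltn1 (0.944), Trnau1ap (0.940) and Nfs1 (0.940) for Psmb5, Mrpl46 (0.943), Rsl1d1 (0.926) and Zpr1 (0.925) for Psmb6, and Med4 (0.921), Brms1 (0.918) and Mrpl35 (0.911) for Psmb7. Psme3 was closest to Uvrag (0.992), Eif3j1 (0.992) and Sinhcaf (0.991), with CT26 apart from the other lines. The Psmb5 correlations use its counts without Gm3375.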

How the data were processed

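The authors deposited 3 tables, 1 per line, of estimated counts per gene; Salmon, DESeq2 and GRCm38 appear in the submitters' processing notes with no role or version, and neither is given in the sources used here. Libraries were poly(A)-selected and stranded, per the labels. Exactly whole values, zeros included, made up 69.1% to 85.3% of a library, and all were rounded. Of 34866 identifiers, 34652 matched a GENCODE M21 symbol after the version was dropped.

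The agonists were compared within a line by the robust quasi-likelihood test of edgeR (4.0.16, in R 4.3.3) with TMM and filterByExpr at a minimum count of 10, and p-values were adjusted by Benjamini-Hochberg over all genes tested. Contrasts between lines came from 1 fit of all 14 libraries. Levels are TMM CPM, and those used for correlations had a prior count of 2. Shared sequence was counted as 31-base stretches of M21 transcripts. Scripts were tested on simulated data. Pair ratios were tested in Python 3.11.15 with numpy 2.4.6.

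Alternatives were DESeq2 1.42.0 and its size factors, no filter, the replicate number as a block, a spread shared by all libraries, each library left out, another gene length, 1 added to each count and, chosen after seeing the data, copies added. A group left with 1 library was taken to vary like the other groups. In CT26 same-numbered libraries correlated in their deviations from group means at 0.122, 0.107 and 0.300. Each exceeded 0.1, although 2 differently numbered pairings were about as high (0.104 and 0.139). E0771 also exceeded 0.1, at 0.438 for same-numbered and -0.438 for crossed libraries, and MC38 did not (-0.0243). The main fits paired no libraries in any line, and the block was run as an alternative in every line. Members and lists were chosen with earlier results of these data known. Genes outside the 9 were named as up to 4 called genes per direction, line and kind of list with the largest change, the transcription factors of a fixed list (1 is not reported here), the 3 closest genes per member, and neighbours within 20 kb, which were added after their values were seen.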

Additional observations from a re-analysis of the deposited data

Results flagged for a closer look

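The RIG-I effect differed between lines, by the interaction contrast in edgeR, for 8 gene and line pairs. In E0771 minus MC38 the log2 difference was 2.06 for Psmb8, 1.76 for Psmb9, 1.97 for Psmb10, 0.81 for Psme1 and 0.80 for Psme2. In CT26 minus E0771 it was -1.36 for Psmb10, -0.54 for Psme1 and -0.78 for Psme2. In all of these E0771 had the larger effect and the lowest level with the control agonist, for example 14.8 CPM of Psmb10 against 174 CPM in MC38. The part of that control level in the difference was not tested. E0771 libraries also varied most, with a biological coefficient of variation of 0.202 in the fit that did not pair libraries. The interaction contrasts used a spread shared by the lines. With the replicate number as a block, Psmb8 and Psmb9 were not called in E0771 minus MC38 (adjusted p 0.0785 and 0.0676, edgeR).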

How the results depend on the processing

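The 3 pair ratios kept their direction with another gene length, 1 added to each count, copies added, each library left out and pairing by replicate number (means of 2.44, 2.44 and 2.40, exact p = 0.0156). The other settings act on fits across genes and do not apply to the ratios. Numbers of genes called over the whole table moved most. With the shared spread, genes higher were 1520 in CT26, 949 in E0771 and 624 in MC38, and genes lower 639 in E0771 and 374 in MC38, and 5 of the 9 genes were higher in MC38. DESeq2 gave 370 higher and 45 lower in E0771 and 1153 and 804 in MC38, and without the filter 22 were lower in E0771. With the replicate block E0771 had 1243 higher and 1215 lower. Same-numbered libraries correlated in their deviations from group means at 0.438 in E0771 and -0.0243 in MC38. With 2 libraries per group, crossed pairings took the same value with the opposite sign. Whether the E0771 numbers mark pairs is not given in the sources used here. The block gave 479 and 1058 genes for CT26 minus E0771, 785 and 1031 for CT26 minus MC38, and 627 and 253 for E0771 minus MC38, where 3 of the 9 were higher. For CT26 minus MC38, 1 of the 9 (Psmb10) was higher under the block, DESeq2 size factors or no filter. With DESeq2 size factors 2 of the 9 were higher in CT26 than in MC38 and 0 in E0771 than in MC38, both with the control agonist.

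Leaving out each library in turn gave 2 to 8 genes lower in E0771. For CT26 minus E0771 it gave 86 to 251 higher and 263 to 614 lower (3 to 5 of the 9 lower), for CT26 minus MC38 112 to 257 and 55 to 249, and for E0771 minus MC38 156 to 378 and 9 to 120 (2 to 5 of the 9 higher). Of the 9, it gave 0 to 1 lower in CT26, 1 to 2 lower in CT26 than in E0771, 2 to 4 higher in CT26 than in MC38 and 0 to 1 higher in E0771 than in MC38, all with the control agonist for the line contrasts, and 3 to 5 higher in CT26 than in MC38 with the RIG-I agonist.

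With copies added, Psmb5 with the control agonist was 0.12 in CT26 against E0771 and 0.29 in CT26 against MC38, and with the RIG-I agonist 0.051 in CT26 against MC38, each the reverse of the value without copies, and 1 of the 9 was then lower in CT26 than in E0771 with either agonist. All other changes that turned direction were uncalled and near 0. Leaving out libraries, Psme3 ranged from -0.053 to 0.063 in CT26, Psmb5 from -0.12 to 0.069 and Psmb7 from -0.033 to 0.13 in E0771. For CT26 minus E0771, Psmb6 ranged from -0.11 to 0.035 and Psmb7 from -0.03 to 0.15, and for CT26 minus MC38, Psmb7 from -0.088 to 0.077 and Psme2 from -0.042 to 0.063. Psme3 ranged from -0.091 to 0.043 for E0771 minus MC38, from -0.025 to 0.047 between these lines with the control agonist and from -0.095 to 0.039 with the RIG-I agonist. Psmb7 ranged from -0.056 to 0.11 in CT26 against E0771 with the control agonist. Without the filter, that Psmb7 difference was -0.0022, the CT26 minus E0771 effect of Psmb6 was 0.0046 and the E0771 minus MC38 effect of Psme3 was -0.022. The block gave -0.00017 for that Psme3 effect, and DESeq2 size factors gave -0.019 with the RIG-I agonist and -0.029 with the control agonist for Psme3 in E0771 against MC38. The cause of these shifts was not tested.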
